A study of Mus musculus with 27 samples.

Results

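Zfp512b, the gene disrupted in this study, and 9 genes beside it on distal mouse chromosome 2 were followed through 8 comparisons of knockout (KO) with wild-type (WT) cells. The 10 genes were listed by name (Zfp512b, Uckl1, Samd10, Prpf6, Dnajc5, Tpd52l2, Sox18, Tcea2, Rgs19 and Oprl1), and all 10 were found among the 25209 genes of every deposited table. Each gene was read on its own row.

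All cells came from V6.5, a line of mouse embryonic stem cells. KO4 and KO8 are the lines #4 and #8, each grown from 1 clone, in which a cassette with a triple transcriptional terminator was placed after exon 3 of Zfp512b on both alleles by CRISPR-Cas9, together with an mCherry or a puromycin resistance gene upstream of the terminator. WT cells had not gone through this editing and selection, so that the loss of Zfp512b, the presence of the cassette and the history of a clone cannot be told apart in any comparison. RNA was sequenced from naive cells on Day 0 (2iLIF medium with LIF and the inhibitors PD0325901 and CHIR99021; 3 libraries each of WT, KO4 and KO8), from primed cells on Day 2 (serum and LIF; 2 each), from the cardiomyocyte (CM) differentiation on Day 7.5 (embryoid bodies with vitamin C; 2 each) and from the neural progenitor cell (NPC) differentiation on Day 10 (embryoid bodies with retinoic acid; 2 each). No source used here says whether libraries of a group came from separate cultures, so p-values measure only the spread between these libraries.

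ZNF512B is a zinc finger protein that binds the NuRD chromatin remodelling complex. A terminator placed in a gene makes RNA polymerase release the transcript, so that RNA from the exons before it can still be made while RNA from later exons is lost. Polymerase that reads past a gene's end, or a promoter carried by a selection cassette, can alter transcription of the next gene. The neighbours are unrelated in function. Uckl1 belongs to the uridine-cytidine kinases of pyrimidine salvage, Prpf6 is a component of the spliceosome, Tcea2 is a transcription elongation factor of the TFIIS family and Samd10 is a protein with a sterile alpha motif. Dnajc5 is the co-chaperone known as cysteine string protein, Tpd52l2 a member of a protein family linked to membrane traffic, Rgs19 a GTPase-activating protein that switches off heterotrimeric G proteins, Oprl1 the G protein-coupled receptor of nociceptin, and Sox18 a transcription factor of blood and lymph vessel endothelium.

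On mm9, the build the authors used, Zfp512b (annotated as Znf512b) occupies chr2:181316808-181327508 and is read on the minus strand, with 17 exons in its longest coding transcript. Exon 3, which is coding, lies at chr2:181325175-181325317. It is shown here 5′ to 3′ on the minus strand with 30 bases of intron on each side (chr2:181325145-181325347), because the cassette was placed after it; exon bases are in capitals and intron bases in lower case. The exact base of the insertion is not given in the sources used here.

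Zfp512b exon 3: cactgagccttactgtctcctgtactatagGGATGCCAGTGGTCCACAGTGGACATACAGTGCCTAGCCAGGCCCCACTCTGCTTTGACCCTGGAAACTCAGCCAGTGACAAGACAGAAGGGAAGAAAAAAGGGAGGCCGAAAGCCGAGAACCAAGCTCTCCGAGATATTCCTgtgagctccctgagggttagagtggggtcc

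Exons 1 to 3 hold 652 of the 5714 exonic bases of this transcript (11.4%) and 267 of its 2607 coding bases (10.2%). Intron 3 is 288 bases long. The next gene in the direction of transcription is Uckl1, on the same strand, whose main transcript starts 8.46 kb beyond the end of exon 3. Only 94 bases (chr2:181316714-181316807) separate the annotated end of Zfp512b from this first exon of Uckl1, and they are shown in the direction of transcription since they are all that divides these transcripts.

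Zfp512b-Uckl1 spacer: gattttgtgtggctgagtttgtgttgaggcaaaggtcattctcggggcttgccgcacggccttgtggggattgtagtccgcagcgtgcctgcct

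Another Uckl1 transcript begins further upstream, and 67 exonic bases of the Zfp512b transcript described above also lie in exons of Uckl1. Reads there cannot be told apart by strand, as both genes are read in the same direction, and how the counting assigned them is not given in the sources used here. Prpf6 (chr2:181326573-181390365, plus strand) overlaps the first part of Zfp512b in the opposite direction without sharing an exonic base with that Zfp512b transcript. Other transcripts of Zfp512b were not compared with the neighbours. Samd10 (chr2:181329923-181333917, minus strand) lies 2.41 kb beyond the start of Zfp512b, within the span of Prpf6. Tpd52l2 (chr2:181231847-181252671) and Dnajc5 (chr2:181255190-181289838), both on the plus strand, are 64.1 and 27.0 kb away on the side of Uckl1. On the other side follow Sox18 (chr2:181404541-181406345, minus strand), Tcea2 (chr2:181415015-181422776, plus), Rgs19 (chr2:181423124-181428682, minus) and Oprl1 (chr2:181449721-181455690, plus), at 77.0, 87.5, 95.6 and 122 kb. The chromosome ends 421 kb past Zfp512b. All 10 genes are annotated as protein-coding.

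The deposited tables hold 1 row per gene and no value per library. Each row gives the base mean (the mean normalized signal over all libraries of a comparison), the log2 fold change between KO and WT (positive where the KO is higher) with its standard error (SE), a Wald score and p-values. The base means of a table summed to 36.0 and 36.1 megareads for naive cells and to between 16.8 and 18.6 megareads for the other stages, so naive values rest on deeper sequencing and more libraries. A gene was called when its adjusted p was under 0.05 (Wald test of DESeq2, Benjamini-Hochberg adjustment), and shared when KO4 and KO8 were both called with 1 direction. By this rule 35.0% of all tested genes were called in naive KO4 and 31.1% in naive KO8, 14.7% and 11.2% at the primed stage, 13.0% and 9.87% among NPCs, and 45.7% and 20.4% at the CM stage. Calls shared by both clones made up 21.6% of tested genes in naive cells, 8.27% in primed cells, 6.98% in NPCs and 11.7% in CMs. Both clones are compared with the same WT libraries at each stage, so their values are not independent of each other.

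The labelled stages were read from markers. WT cells of the naive and primed stages carried 3356 and 2691 RPM (normalized reads divided by the table's summed base means in megareads) for 6 naive stem cell markers together, against 189.6 in NPCs and 197.9 in CMs. The 5 cardiomyocyte markers (Tnnt2, Myh6, Nkx2-5, Actn2 and Ryr2) summed to 1119 in WT CMs. In the libraries labelled CM KO4 the same markers summed to 7.09, with all 5 lower than in WT (log2 fold changes between -8.33 and -4.70). Of the 5 neural progenitor markers, Sox1, Pax6 and Nes were called higher there (6.48, 5.45 and 0.29) and Hoxb4 lower (-3.10). Neurog2 was hardly counted (base mean 0.49). In CM KO8 the cardiomyocyte markers summed to 568.0, with 3 of the 5 called lower. The defining markers of the labelled cell type were thus nearly missing in CM KO4. The 6 naive stem cell markers summed to 344.4 in CM KO4, with 4 called higher and 2 lower than in WT. In CM KO8 they summed to 138.3, with 1 called higher and 5 lower. Markers of endoderm summed to 178.0 in WT CMs, 13.4 in KO4 and 281.1 in KO8. The collagens Col1a1 and Col3a1 summed to 689.9, 482.2 and 2978 in the same order. In CM KO4 Col1a1 was called higher (0.59) and Col3a1 lower (-3.62), while both were called higher in CM KO8 (2.47 and 1.66). At their own stages, WT primed cells had 2427 for the primed markers Pou5f1, Dnmt3b and Otx2, and WT NPCs 318.1 for the 5 neural progenitor markers. The primed level of Fgf5 could not be recovered. Nes (215.2) and Hoxb4 (84.2) made up most of the NPC sum. Without Neurog2, the same list summed to 252.9 in WT CMs. Markers of endoderm summed to 485.7 in WT NPCs and the 2 collagens to 677.6, so the neural list was not the highest there. Genes of chromosome 8 had medians of 0.41 to 0.50 above all genes in the 8 tables, whereas the median of the other chromosome 2 genes was between -0.02 and -0.003. Zfp512b and its 9 neighbours are all on chromosome 2. The markers were not sorted by chromosome, so the shift of chromosome 8 may bear on some of them.

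In WT cells Zfp512b was expressed at every stage. In each case the WT level could be recovered from a table's base mean and fold change, and is given in RPM. It was 33.6 in naive cells, 55.1 in primed cells, 142 in NPCs and 60.4 in CMs, each the mean of the estimates from both tables of a stage. NPCs thus had the highest level and naive cells the lowest. The stages were normalized apart and the tables carry no spread between libraries for a level, so that this order is a description without a test, and primed cells and CMs were close to each other.

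**Figure D1:**
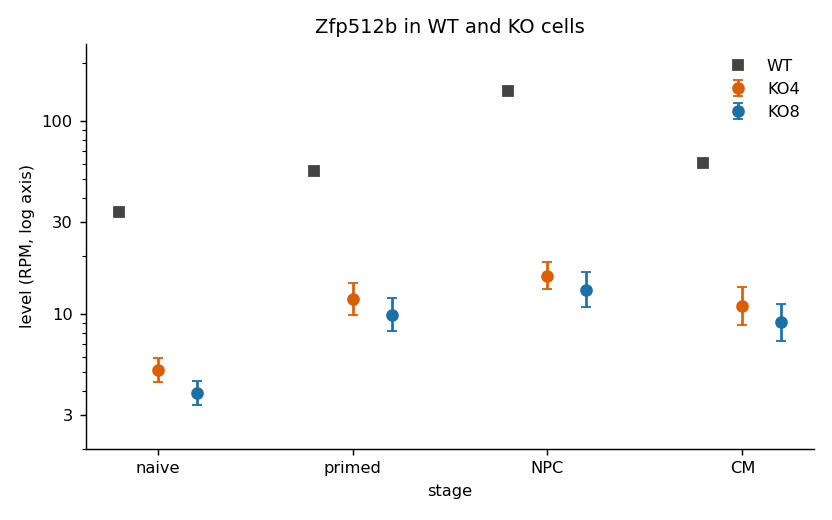
Level of Zfp512b in RPM (log axis) at each stage, for WT (squares, no error available), KO4 and KO8 (circles, with the 95% interval of the change applied to the WT level). WT runs from 33.6 to 142 and both clones from 3.88 to 15.8, so that WT and KO do not overlap at any stage.

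Zfp512b was lower in both clones at every stage, and it was called in all 8 tables. The log2 fold changes were -2.56 (SE 0.10) in KO4 and -2.90 (SE 0.10) in KO8 for naive cells, and -1.93 (SE 0.12) and -2.10 (SE 0.12) for primed cells. For NPCs they were -2.95 (SE 0.11) and -3.15 (SE 0.14), and for CMs -2.43 (SE 0.16) and -2.55 (SE 0.15). Adjusted p-values lay between 1.05e-181 and 7.17e-48. Every clone thus carried well under the WT amount at every stage, and KO8 had the lower value each time. By median fold change over the 8 tables Zfp512b was the lowest of the 11320 genes tested in all of them.

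The fold changes of the tables had been drawn toward 0 by a prior, most strongly where few reads were counted. After its removal the remaining Zfp512b RNA was 15.4% of WT in naive KO4 (95% interval 13.3 to 17.7) and 11.5% in naive KO8 (9.97 to 13.3). In primed cells 21.6% (17.9 to 26.1) and 18.0% (14.8 to 21.9) remained. In NPCs the shares were 11.1% (9.47 to 13.1) and 9.33% (7.56 to 11.5), and in CMs 18.0% (14.4 to 22.6) and 15.1% (12.1 to 18.8). For scale, exons 1 to 3, which precede the cassette, make up 11.4% of the exonic bases. The tables do not split a gene by exon, and where on the gene the remaining reads lie was not tested. In RPM, KO4 and KO8 held 5.14 and 3.88 at the naive, 11.9 and 9.91 at the primed, 15.8 and 13.3 at the NPC and 10.9 and 9.06 at the CM stage, so the residual level was also lowest in naive cells and highest in NPCs.

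Whether the reduction had the same size at each stage was tested for each clone from the difference of 2 fold changes over their combined standard errors (two-sided normal test, Benjamini-Hochberg over all genes with an adjusted p at both stages). A difference was called when both clones passed in the same direction. Zfp512b fell less in primed than in naive cells, by 0.64 (SE 0.16, adjusted p = 0.00133) in KO4 and 0.80 (SE 0.16, adjusted p = 3.24e-05) in KO8. This call did not hold on the scale without the prior, where the differences were 0.49 (SE 0.17, adjusted p = 0.0504) and 0.64 (SE 0.18, adjusted p = 0.0115). It fell more in NPCs than in primed cells, by -1.03 (SE 0.16, adjusted p = 8.54e-08) and -1.05 (SE 0.19, adjusted p = 6.76e-06). From NPCs to CMs the reduction became smaller again, by 0.52 (SE 0.20, adjusted p = 0.0262) and 0.60 (SE 0.21, adjusted p = 0.0361). The last 2 calls held without the prior. Among all genes such differences were called for 3.77% from naive to primed cells, 1.88% from primed cells to NPCs and 5.18% from NPCs to CMs.

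No difference in Zfp512b between KO4 and KO8 was called at any stage. The largest gap, 0.34 (SE 0.14) in naive cells, had an adjusted p of 0.191 and an unadjusted 95% interval of 0.07 to 0.62. The shared WT libraries make this error too large. An error for the KO libraries alone was computed as if KO and WT libraries carried equal variance, which was not tested. With it the naive gap passed (normal test, adjusted p = 0.00733).

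The 9 neighbours gave 72 values, of which 68 had an adjusted p, and 14 of these were called (20.6%), 7 higher and 7 lower in the KO. Over all genes of the same 8 tables, 23.4% of tests were called. Without the CM KO4 table, left out after its values were seen, 10 of 59 neighbour tests were called (16.9%, against 19.8% over all genes). Only 1 of the 72 values exceeded 1 on the log2 scale in size, that of Sox18 in CM KO4. Shared calls were made for 3 of the 36 pairs of a neighbour and a stage, namely Dnajc5 and Rgs19 in naive cells and Sox18 in CMs. With Zfp512b, 3 of 9 tested members were shared in naive cells (21.6% of all genes), 1 of 9 in primed cells (8.27%), 1 of 10 in NPCs (6.98%) and 2 of 10 in CMs (11.7%). The median fold change of the 9 neighbours lay between -0.13 and 0.16 in the 8 tables, and that of all genes tested in both clones between -0.03 and -0.003. Apart from Zfp512b, no member was a shared call at more than 1 stage. In primed cells no neighbour was called, and at an unadjusted p under 0.05 only Sox18 in KO4 and Tpd52l2 in KO8 passed.

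**Figure D2:**
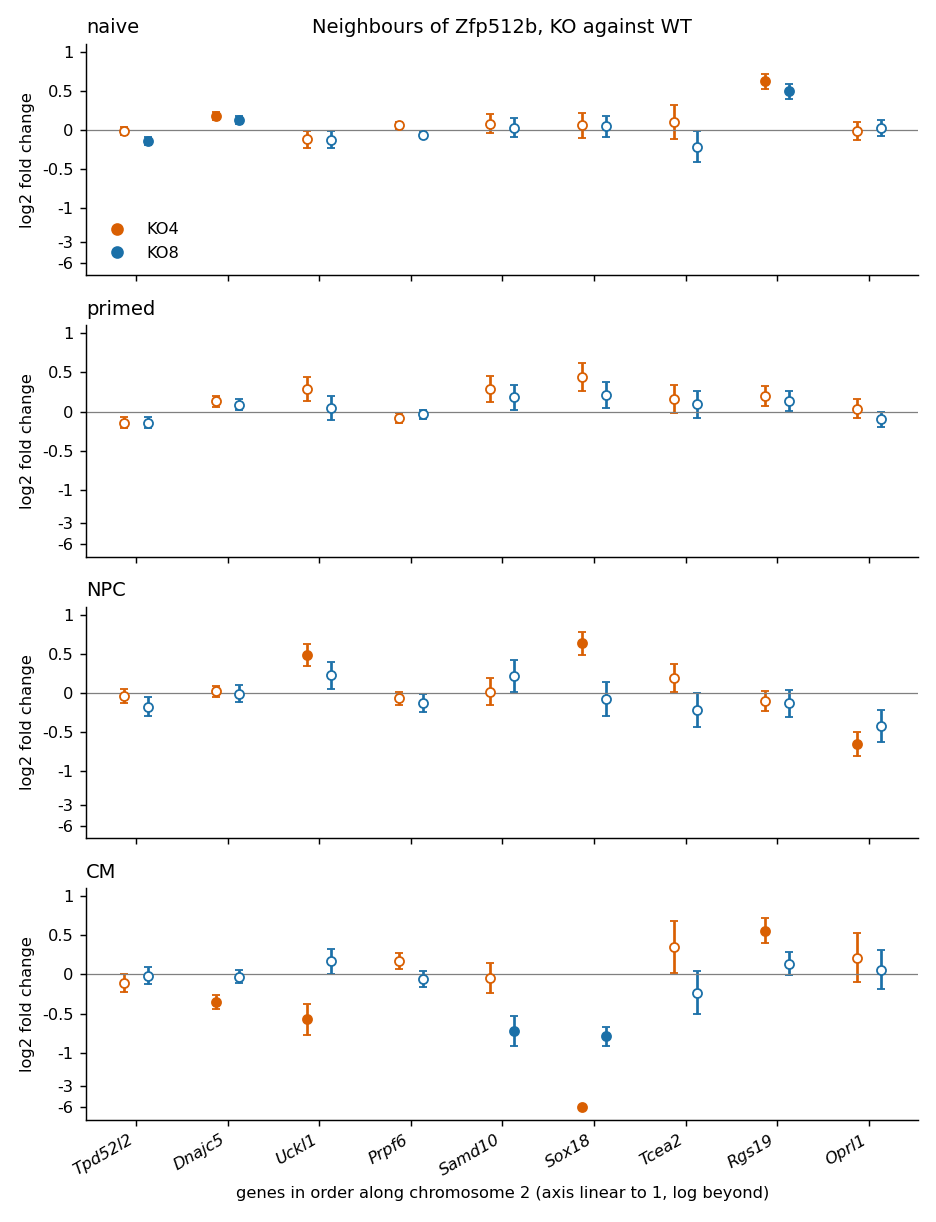
Log2 fold change in KO against WT for the 9 neighbours in the order of the chromosome, 1 panel per stage, for KO4 and KO8 (mean and SE; filled circles were called, open circles were not; the vertical axis is linear between -1 and 1 and logarithmic beyond). Rgs19 and Dnajc5 lie above 0 in both clones in naive cells, no neighbour is called in primed cells, and Sox18 reaches -5.98 in CM KO4.

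Uckl1 is the gene next in line behind the cassette on the same strand. In naive cells it was -0.12 (SE 0.11) in both clones, and in neither called (adjusted p = 0.423 for each). In primed cells the values were 0.29 (SE 0.16) and 0.05 (SE 0.16), again not called. In NPCs Uckl1 rose in KO4 by 0.48 (SE 0.14, adjusted p = 0.00690) and was 0.22 (SE 0.17, adjusted p = 0.617) in KO8. In CMs it fell by 0.58 in KO4 (SE 0.20, adjusted p = 0.00994) and was 0.17 (SE 0.16) in KO8. The called values therefore pointed in opposite directions at 2 stages of the same clone, and no stage gave a shared call. In RPM, WT cells had 13.3, 10.8, 24.4 and 22.2 from naive cells over primed cells and NPCs to CMs, against 12.1, 14.1, 35.5 and 14.8 in KO4 and 12.2, 11.4, 29.2 and 25.1 in KO8.

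Prpf6 and Samd10 flank Zfp512b at its start. Prpf6, the most highly expressed member per kb of exon in naive and primed cells, was not called in any table, with fold changes between -0.13 and 0.17 and SEs of 0.04 to 0.12. In naive cells, where the error was smallest, KO4 had 104% of WT (95% interval 98.4 to 111) and KO8 95.7% (90.4 to 101). Samd10 was called only in CM KO8, where it fell by 0.73 (SE 0.19, adjusted p = 0.00145). Its level there was 11.0 RPM against 19.3 in WT, while CM KO4 stood at -0.04 (SE 0.19). At the other stages Samd10 lay between 0.02 and 0.29 without a call.

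On the side of Uckl1, Dnajc5 rose slightly in naive cells in both clones, by 0.18 (SE 0.05, adjusted p = 0.00122) in KO4 and 0.13 (SE 0.05, adjusted p = 0.0216) in KO8. This corresponds to 114% and 110% of the WT level of 127 RPM. In primed cells the values were 0.13 (SE 0.07) and 0.09 (SE 0.07), in NPCs 0.02 and -0.01, and none was called. Dnajc5 fell by 0.35 in CM KO4 (SE 0.09, adjusted p = 3.30e-04) and was -0.03 (SE 0.09) in CM KO8. Tpd52l2 was below 0 in all 8 tables, between -0.18 and -0.01, and was called only in naive KO8 (-0.14, SE 0.06, adjusted p = 0.0376). That call was lost when fold changes were centred on the median of all genes.

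Rgs19 was the neighbour that rose most clearly in naive cells, by 0.63 (SE 0.10, adjusted p = 1.50e-09) in KO4 and by 0.49 (SE 0.10, adjusted p = 2.77e-06) in KO8. The recovered levels were 14.1 and 14.2 RPM in WT, 22.4 in KO4 and 20.5 in KO8. It was not called in primed cells (0.20, SE 0.13, and 0.14, SE 0.13) or in NPCs (-0.10, SE 0.13, and -0.13, SE 0.17). In CMs it rose in KO4 (0.56, SE 0.16, adjusted p = 0.00101), whereas KO8 had 0.14 (SE 0.15, adjusted p = 0.608). From naive cells to NPCs the change differed in both clones, by -0.73 (SE 0.16, adjusted p = 1.74e-04) and -0.62 (SE 0.20, adjusted p = 0.0276), a kind of call made for 4.85% of all genes. In WT cells Rgs19 was higher at the stages where no shared rise was found, with 23.3 in primed cells, 32.7 in NPCs and 29.6 in CMs.

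Tcea2, which lies 347 bases from Rgs19, was not called in any table. Its fold changes ran from -0.23 to 0.35 with SEs of 0.17 to 0.33, and its base mean was under 100 in 6 of the 8 tables, so that small changes were not detectable at this depth. Oprl1 was hardly counted in naive and primed cells (base means between 1.82 and 11.7) and had no adjusted p there. In NPCs, where WT had 25.2 and 25.3 RPM, Oprl1 fell by 0.66 in KO4 (SE 0.16, adjusted p = 4.34e-04), to 14.8. In KO8 it was -0.42 (SE 0.20, adjusted p = 0.228), at 17.7. The difference between the clones was not called (adjusted p = 0.9998), with a 95% interval from -0.73 to 0.27. In CMs the values were 0.21 (SE 0.31) and 0.06 (SE 0.25). Beside the NPC values, 3 of 5 neural progenitor markers were called higher in KO4 and 2 of 5 in KO8, and none lower, and their part in the values of Oprl1 was not tested.

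Sox18 had the largest fold change of all members. It was hardly counted in naive cells (base means 5.86 and 5.90) and low in primed cells (49.3 and 39.2), where the fold changes of 0.44 (SE 0.18) and 0.21 (SE 0.16) were not called. In NPCs, WT cells had 22.5 and 22.6 RPM, KO4 rose by 0.63 (SE 0.14, adjusted p = 1.30e-04) to 37.0 and KO8 stood at -0.07 (SE 0.22) and 21.2. In CMs the WT level was 83.0 and 82.4, the highest of all members per kb of exon. There Sox18 fell by 5.98 in KO4 (SE 0.25, adjusted p = 1.55e-119), to 1.34% of WT (95% interval 0.934 to 1.92), and by 0.79 in KO8 (SE 0.12, adjusted p = 2.41e-09), to 56.5% (47.6 to 67.1). The clones differed by -5.19 (SE 0.28, adjusted p = 3.70e-73).

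Markers of endothelial cells moved with Sox18 at the CM stage. All 5 (Pecam1, Cdh5, Kdr, Tek and Erg) were called lower in KO4, with fold changes from -5.40 for Erg to -2.98 for Pecam1, and 4 of 5 in KO8, with values from -0.61 for Kdr to -0.10 for Tek, which was not called. Their summed level was 993.5 RPM in WT and 55.8 in KO4, and 986.4 in WT and 705.8 in KO8, by the respective tables. Sox18 lay below each of the 5 markers in both clones, a difference that was not tested. The fall in KO4 was not particular to endothelial markers. All 5 cardiomyocyte markers (-8.33 to -4.70) and all 3 endoderm markers (-3.99 to -2.19) were also called lower there. In KO8, 3 of 5 cardiomyocyte markers were called lower, while 1 of 3 endoderm markers was called higher and none lower. In bulk RNA, fewer endothelial cells and less Sox18 RNA per cell cannot be told apart. In NPCs only Cdh5 of the endothelial list, which codes for the adhesion protein VE-cadherin, was called (1.16 in KO4 and 1.00 in KO8). All 5 endothelial markers were above 0 in KO4 (0.05 to 1.16, median 0.31). In KO8 they ran from -0.37 to 1.00, with a median of -0.08. Their summed level was 294.8 RPM in WT and 387.9 in KO4, and 296.9 in WT and 310.5 in KO8. Whether they moved with Sox18 in NPCs was not tested.

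**Figure D3:**
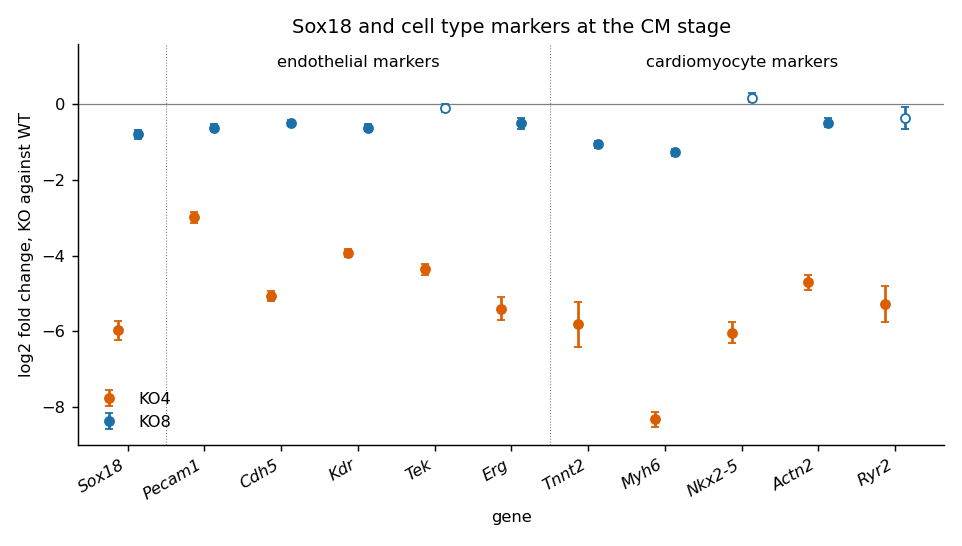
Log2 fold change in KO against WT at the CM stage for Sox18, 5 endothelial markers and 5 cardiomyocyte markers (mean and SE; filled circles were called, open circles were not), for KO4 and KO8. In KO4 all 11 genes lie at -2.98 or below, and in KO8 all 11 lie between -1.27 and 0.18.

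The change of Sox18 in CMs differed in both clones from that in NPCs (-6.61, SE 0.29, and -0.72, SE 0.25), with an adjusted p of 0.0376 in KO8 that was 0.119 without the prior. Differences from naive cells (-6.04, SE 0.30, and -0.84, SE 0.18) and from primed cells (-6.42, SE 0.31, and -1.001, SE 0.20) passed as well, but there the base mean was below that at which the prior could be removed. The naive and primed fold changes and their SEs were thus largely set by the prior, and these differences mainly restate the CM values. Over all genes such calls were made for 10.8% from naive cells to CMs and for 7.15% from primed cells to CMs. Between the clones, 4 of 10 members differed at the CM stage, against 31.3% of all genes. These were Sox18, Uckl1 (-0.75, SE 0.26, adjusted p = 0.0144), Samd10 (0.68, SE 0.27, adjusted p = 0.0418) and Dnajc5 (-0.32, SE 0.12, adjusted p = 0.0320). At the naive, primed and NPC stages no clone difference of a member was called, where 3.52%, 0.575% and 0.671% of all genes were. At an unadjusted p under 0.05 there were 2 members in naive cells (Zfp512b and Prpf6), 0 in primed cells and 1 in NPCs (Sox18).

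In WT cells the members kept distinct levels. Between genes they can be set side by side only per kb of exon. On this scale, in RPM per kb, Prpf6 had 40.3, 43.1, 40.0 and 29.7 from naive cells over primed cells and NPCs to CMs. Zfp512b had 4.93, 8.10, 20.9 and 8.86, and Uckl1, its closest neighbour on the same strand, 2.87, 2.34, 5.28 and 4.80. Dnajc5 had 18.3, 15.6, 35.3 and 36.2, and Samd10 2.96, 3.48, 6.39 and 7.93, so that these genes and Uckl1 were higher in NPCs and CMs than before. Tpd52l2 changed least, between 17.6 and 20.7. Neighbouring genes thus did not share one course over the stages, and Zfp512b had the largest ratio of NPC to naive level among the 7 members whose level could be given at all stages, while Dnajc5 had the largest difference.

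**Figure D4:**
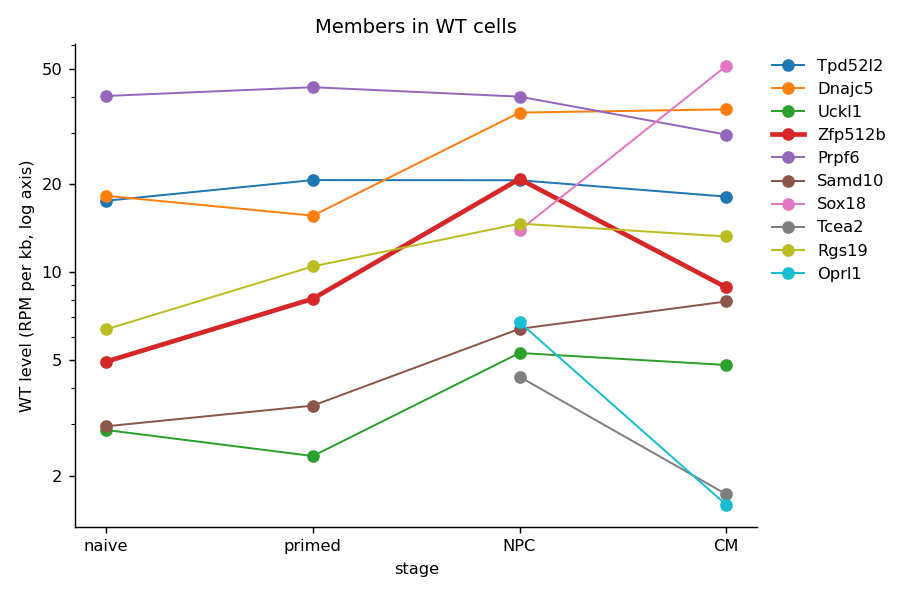
WT level of each member in RPM per kb of exon (log axis) at the 4 stages, each point the mean of the estimates from both tables and without an error. Sox18, Tcea2 and Oprl1 are drawn only for NPCs and CMs, because too few reads were counted before, and Zfp512b peaks in NPCs at 20.9.

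The wider region was read from the 44 other genes placed within 1 Mb of Zfp512b, the 9 neighbours included. On the side of the chromosome end this window stops at 421 kb. In naive cells 7 of 35 tested genes were shared calls (20.0%), 2 higher and 5 lower, against 21.6% over all genes. In primed cells 3 of 28 were shared (10.7%, against 8.27%), in NPCs 3 of 37 (8.11%, against 6.98%) and in CMs 1 of 37 (2.70%, against 11.7%). The shares near Zfp512b lay close to those of the background in the first 3 stages and below it in CMs. Median fold changes of the tested genes were between -0.12 and 0.10 over the 8 tables.

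Other genes of the window were shared calls as well. In naive cells Slc17a9 (a vesicular nucleotide transporter; -0.27 in KO4 and -0.40 in KO8), Birc7 (an inhibitor of apoptosis; -1.22 and -0.72), Nkain4 (-0.45 and -0.51), Col20a1 (a collagen; -0.71 and -0.84) and Pcmtd2 (-0.26 and -0.25) fell. In primed cells Slc17a9 (-0.86 and -0.57) and Ppdpf (-0.33 and -0.34) fell and Dido1 (0.17 and 0.25) rose. In NPCs the genes that rose included Stmn3, a neuronal stathmin (0.59 and 1.05) and Myt1, a transcription factor of neural progenitors (1.41 and 1.65). Both act in neural cells, and as given above 3 of 5 neural progenitor markers in KO4 and 2 of 5 in KO8 were called higher in NPCs. Their part in these values was not tested.

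**Figure D5:**
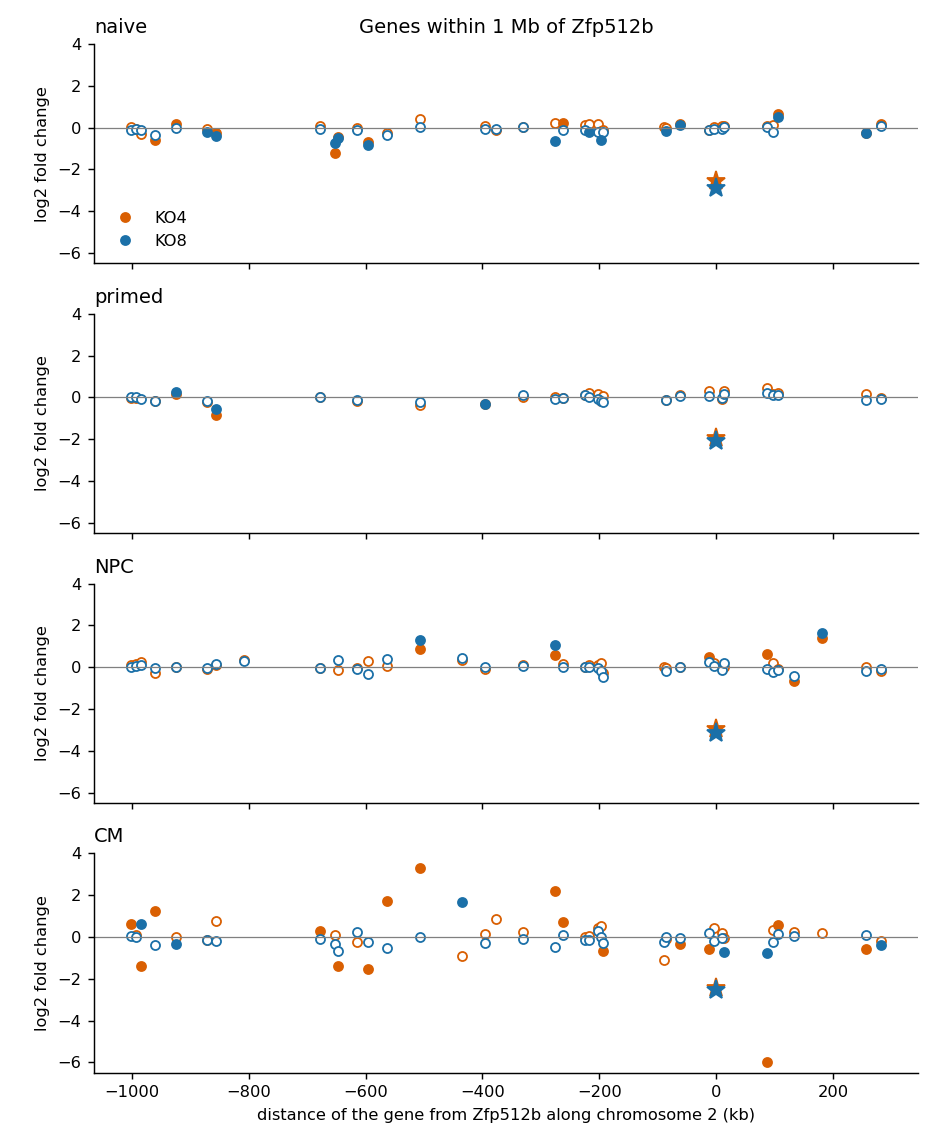
Log2 fold change in KO against WT, by the distance of a gene's start from that of Zfp512b in kb, for the genes with an adjusted p within 1 Mb, 1 panel per stage (circles, filled where called; stars mark Zfp512b). Zfp512b lies at -1.93 or below in every panel, while in naive, primed and NPC cells all others lie between -1.22 and 1.65; in CM KO4 the values spread more widely, with Sox18 at -5.98.

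Zfp512, the paralogue of Zfp512b, was measured at 55.8 to 110 RPM in WT cells. It was not called in naive cells (0.08, SE 0.06, and 0.09, SE 0.06), primed cells (0.18, SE 0.09, and 0.10, SE 0.09) or NPCs (0.08, SE 0.09, and -0.09, SE 0.12). In CMs it rose in both clones, by 0.40 (SE 0.12, adjusted p = 0.00205) and 0.30 (SE 0.11, adjusted p = 0.0368). Of the 11320 genes tested in all 8 tables, Zfp512b and Idh2, a mitochondrial isocitrate dehydrogenase, were called lower in every one; Idh2 was singled out after its values were seen. The 5 genes nearest to Zfp512b by root mean square difference of the log2 fold changes were Col26a1, Rnf17, Ldlrad4, Notch4 and Rusc2, on 5 other chromosomes, with differences from 1.86 to 1.93 on the log2 scale and medians between -0.90 and -0.64. Rnf17 and Notch4 were above 0 in 1 table each.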

How the data were processed

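RNA-seq of 27 libraries was available as 8 tables, 1 per clone and stage, with groups taken from the labels. Per the submitters' processing notes and the paper's methods, the authors trimmed reads with Trim Galore 0.6.7, aligned them to mm9 with HISAT2 2.2, counted them per gene with featureCounts and ran DESeq2 1.46.0; settings for strand and overlapping genes are not given in the sources used here. The deposited base mean is a normalized signal averaged by the authors over the libraries compared. The log2 fold changes, their standard errors, the Wald score and the adjusted p-value are the authors' deposited values, and all calls rest on them because no counts per library were used; p-values were recomputed here from the Wald score.

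The standard errors reach a ceiling, as under a prior on the fold change with a standard deviation of 0.343 to 1.31. It was removed for genes whose base mean was at or above that of the ceiling in both tables of a stage, and WT and KO levels were computed from the base mean. WT levels obtained from the 2 tables of a stage, after scaling, differed by a median of 0.00491 to 0.0176% over genes whose base mean reached 100, and by at most 0.102% for the members. Stage and clone differences used normal tests (two-sided); that of stages was tested on simulated data for naive against primed cells and NPCs against CMs. Genes were placed on mm9 by symbol (20202) or synonym (2287). Python 3.11.15, numpy 2.4.6, pandas 2.3.3, scipy 1.17.1 and matplotlib 3.10.9 were used.

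The members, marker lists and tests were chosen with earlier results of these data known. Named were the 10 members, other genes within 1 Mb that were shared calls at 1 or more stages, the paralogue and the 5 genes nearest in pattern. The values of 1 gene that this rule names are not reported here. Alternatives were other adjustments, thresholds, centrings, windows and errors, the prior removed, and, chosen after seeing the data, leaving out the CM KO4 table.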

Additional observations from a re-analysis of the deposited data

Results flagged for a closer look

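The following differences between stages or clones passed a test of the difference itself, on the deposited log2 scale. Zfp512b fell less in primed than in naive cells (difference 0.64 in KO4 and 0.80 in KO8), more in NPCs than in primed cells (-1.03 and -1.05), and less in CMs than in NPCs (0.52 and 0.60). The change of Rgs19 was lower in NPCs than in naive cells by -0.73 in KO4 and -0.62 in KO8. The change of Sox18 was lower in CMs than in naive cells (-6.04 and -0.84), than in primed cells (-6.42 and -1.001) and than in NPCs (-6.61 and -0.72). The naive and primed fold changes of Sox18 rest on few reads and were largely set by the prior, so that only the comparison with NPCs sets CMs against a measured change. In KO8 that comparison did not pass without the prior (normal test, adjusted p = 0.119). Nor did the naive to primed difference of Zfp512b in KO4 (normal test, adjusted p = 0.0504).

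At the CM stage, KO4 minus KO8 was -5.19 for Sox18, -0.75 for Uckl1, 0.68 for Samd10 and -0.32 for Dnajc5. In CM KO4 the cardiomyocyte markers were nearly missing and the endothelial markers were lower than in WT. The part of this in the 4 differences was not tested.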

How the results depend on the processing

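Adjusting over every gene with a p-value, or a threshold of 0.01, left the counts of shared members within 1.5 times at each stage. With a log2 fold change of at least 0.5 in both clones, 1 member was shared in naive cells in place of 3. Requiring a call in at least 1 clone gave 4 members in NPCs and 6 in CMs. Without the prior, 0 members differed between naive and primed cells in both clones (1, Zfp512b, at an unadjusted p under 0.05 in the normal test) and 1 between NPCs and CMs; no prior-free value is given for Sox18, Tcea2 and Oprl1 in naive and primed cells. With the error of the KO libraries alone, computed as if KO and WT carried equal variance, 2 members differed between the clones in naive cells and 1 in NPCs. A window of 0.5 Mb held 3 shared genes in naive and 1 in primed cells, and a window of 2 Mb held 4 in CMs. Centred on chromosome 2, Dnajc5 in NPC KO8 turned to 0.00267 from -0.01, a value that was not called. The cause of these shifts was not tested.

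No paired analysis was possible because the tables carry no value per library, and leaving out single libraries was not run for the same reason. Stages other than naive had 2 libraries per group and fewer reads, which limits what their tests can detect.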
